A study of Arabidopsis thaliana with 18 samples.

Results

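These results describe 150 probe sets of the Arabidopsis ATH1 array whose signal was lowest on the arrays numbered replicate 1. The 150 members were chosen by measured values: among 8593 probe sets with a mean log2 signal of at least 4.3 over 18 arrays, and whose mean on arrays 20, 28 and 30 lay within 0.5 of their mean on arrays 19, 21 and 29, they had the widest gap between the replicate 1 mean and the lower of the replicate 2 and replicate 3 means. Control probe sets and a short list of genes and families named in the rule were not eligible. The array held 22746 probe sets other than controls, of which 13648 passed the filter on low signal and were tested. The platform annotation gave 77 members 1 gene each, 7 members several genes and 66 members none. Because 2 genes had 2 member probe sets each, 75 different genes were named.

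RNA came from the natural accession Cvi-1, and every array measured 1 sample. In 9 samples the treatment was salicylic acid (SA) at 0.30 mM with 0.02% silwet, and in 9 it was 0.02% silwet alone, a surfactant that spreads a spray on plant surfaces, so that both groups shared the surfactant and the genotype. The titles give each array a serial number, 28 to 36 for SA and 19 to 27 for silwet, and a replicate number of 1, 2 or 3, each used 3 times per treatment. Runs of 3 consecutive serials therefore hold replicates 1, 2 and 3 once each, and are called serial blocks 1, 2 and 3 here. A further number in the titles falls into 3 separate ranges, 1 for each replicate number and shared by both treatments. Within each range it rises over serial blocks 1, 2 and 3, and in each block the silwet number comes just before that of SA. Whatever it stands for cannot be told apart from the replicate number or, within a range, from the order of the blocks. The labels do not say what the replicate numbers, serials or this further number mean, nor the tissue or plant age, and nothing says that samples came from separate plants, so p-values measure the spread between these arrays, which may be technical. The signals of RCA, the activase of Rubisco, lay between 1760 and 3247 and those of LHCB4.1, an antenna protein of photosystem II, between 2430 and 3576. The root hair expansins EXPA7 and EXPA18 reached at most 16.1 and 16.3, and PYK10, a beta-glucosidase known from roots, lay between 205 and 333. In bulk RNA, fewer cells of a type and less RNA per cell cannot be told apart.

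Salicylic acid is a plant hormone of immunity that is made after infection and switches on pathogenesis-related genes through the coactivator NPR1. Plant cell walls are loosened by expansins, stiffened by hydroxyproline-rich glycoproteins and decorated with acetyl groups by proteins of the trichome birefringence-like family. Beta-glucosidases release sugars from stored conjugates, and jacalin-related lectins bind sugars and are often linked to defence. Counted by gene symbol alone, the members include 1 alpha-expansin, 1 hydroxyproline-rich glycoprotein, 1 trichome birefringence-like gene, 1 jacalin-related lectin and 2 beta-glucosidases. Most members with 1 gene, 66 of 77, carry a locus number with no gene symbol, and no role is given for those. Some of them may belong to these families and are not in the counts.

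The gap that chose the members ran from 1.74 to 0.58 on the log2 scale, or at most 3.34-fold, with a median of 0.70 or 1.63-fold. It is a description of the choice and was not tested. The median gap over all tested probe sets was -0.07. In 20 members the gap was at least 1. The median member had a mean log2 signal of 4.67 in replicate 1, 5.57 in replicate 2 and 5.65 in replicate 3. Replicates 2 and 3 differed little, with a median of replicate 3 minus replicate 2 of 0.06, although single members ranged from -1.43 to 0.92 and 97 of 150 were higher in replicate 3.

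The replicate 1 arrays stood below the others one by one. The median member lay 0.88 to 0.27 log2 units under its own mean on the 6 replicate 1 arrays. On the replicate 2 arrays it lay 0.15 to 0.28 above, and on the replicate 3 arrays 0.22 to 0.38 above. The median over all tested probe sets stayed between -0.14 and 0.05 on the 18 arrays.

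**Figure D1:**
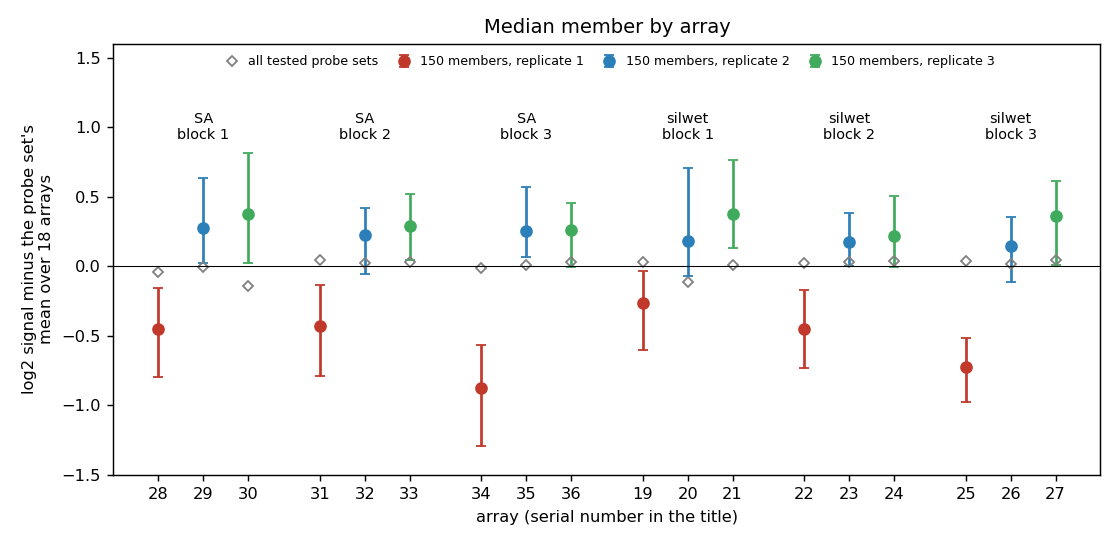
Median of the 150 members on each array (points, coloured by replicate number) as log2 signal minus the probe set's own mean over 18 arrays, with bars from the lower to the upper quartile. Grey diamonds are the median of all 13648 tested probe sets. The 6 replicate 1 arrays lie between -0.88 and -0.27, all below the other 12.

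Replicate 1 was the lowest of its block in all 6 triplets (3 serial blocks in each of 2 treatments) for 81 members, in 5 triplets for 50 and in 4 for the other 19. Of all tested probe sets 1.88% had replicate 1 lowest in all 6. In 17 members, 9 of them with 1 gene, all 6 replicate 1 arrays lay under all 12 others, against 0.293% of all tested probe sets. These counts follow from the choice of members and nothing is read from them. For the remaining members the arrays overlapped.

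The members sat low on the signal scale. A probe set's signal depends on its probes as well as on its transcript, so levels are given only to place the members in the array's range. Their mean log2 signal ran from 4.32 to 10.75 with a median of 5.28, against a median of 6.51 over all tested probe sets. Under a log2 signal of 5 lay 64 members (42.7%) and 13.0% of the tested probe sets. A total of 13 members had a mean of at least 8. In 26 members the replicate 1 mean was under a log2 signal of 4, a signal of 16, and in 0 members the replicate 2 or replicate 3 mean was. The share of members with a signal under 16 was 19.2% ± 6.51 on replicate 1 arrays, 1.56% ± 0.807 on replicate 2 arrays and 1.33% ± 0.843 on replicate 3 arrays (SD, n = 6 each). Members were chosen low on replicate 1 and with a minimum mean level over all arrays. The counts and shares under 16 by replicate number therefore follow largely from the choice, and nothing is read from them.

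Several measures of the whole array moved in part with the replicate number, and their part in the members' pattern was not tested. The share of all signals under 16 was 37.6% ± 1.07 on replicate 1, 35.9% ± 1.09 on replicate 2 and 34.9% ± 1.35 on replicate 3 arrays. The ratio of the 3′ to the 5′ ubiquitin control probe sets, a sign of RNA integrity and labelling, was 2.46 ± 0.344, 2.14 ± 0.257 and 2.13 ± 0.193 in replicates 1, 2 and 3. The same ratio for GAPDH was 1.03 ± 0.0383, 1.02 ± 0.0603 and 0.960 ± 0.0430, and for actin 0.462 ± 0.0518, 0.418 ± 0.0690 and 0.418 ± 0.0809. The bacterial spike bioB, added at hybridisation, averaged 40.8 ± 5.65, 58.8 ± 9.18 and 43.4 ± 9.41 (SD, n = 6 each). The ranges of every one of these measures overlapped between replicate numbers.

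Array 34, the SA replicate 1 array of block 3, was the lowest of all 18 for 58 members. Array 28 was lowest for 29, array 25 for 23, array 31 for 17, array 22 for 14 and array 19 for 6, which leaves 3 members whose lowest array was not of replicate 1. When the rule was applied without array 34, an alternative chosen after seeing the data, 111 of the 150 stayed members and all 150 still had their lowest mean in replicate 1. Among the 18 arrays, array 34 had the lowest median signal (31.7), the highest share of signals under 16 (38.8%) and the highest ubiquitin ratio (2.88). Its GAPDH and actin ratios, 1.05 and 0.478, lay inside the range of the others. The part of these measures in the members' pattern was not tested.

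Among members with a symbol, HRGP1, EXPA16 and TBL37 belong to cell wall families. HRGP1, a hydroxyproline-rich glycoprotein of the wall, had signals of 18.5 to 28.1 in replicate 1 (median 19.8), 27.0 to 49.0 in replicate 2 (median 34.1) and 34.4 to 51.9 in replicate 3 (median 41.7). Only the highest replicate 1 array reached into the range of replicate 2, and none reached that of replicate 3. EXPA16, an alpha-expansin, had 9.67 to 26.6 (median 15.5), 16.8 to 46.3 (median 24.3) and 17.4 to 42.0 (median 33.2) in replicates 1, 2 and 3, and its ranges overlapped. TBL37, of the trichome birefringence-like family, had 32.3 to 121 (median 37.5), 37.1 to 233 (median 81.4) and 42.2 to 232 (median 61.7). Its ranges overlapped widely, yet replicate 1 was its lowest array in all 6 triplets. Of 23 tested genes on a list of wall genes by symbol, EXPA16 was the member, and 16 (69.6%) had their lowest mean in replicate 1, against 38.7% of all tested probe sets with 1 gene. TBL37 and HRGP1 belong to families outside that list, and of 13 tested TBL genes 6 were lowest in replicate 1. These counts rest on the values that chose the members, and no test was made.

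Members of families that act on or bind sugars were BGLU16, BGLU15, JAL23 and GPT. BGLU16, a beta-glucosidase, had 68.8 to 133 (median 108), 141 to 236 (median 161) and 139 to 287 (median 165) in replicates 1, 2 and 3, so its 6 replicate 1 arrays lay under all others. BGLU15 had 16.1 to 30.8 (median 21.0), 26.4 to 42.5 (median 32.5) and 25.4 to 53.2 (median 32.6), with some overlap. Among 9 tested BGLU genes these 2 were members and 5 had their lowest mean in replicate 1, to be read against the same 38.7%. JAL23, a jacalin-related lectin, had 54.7 to 127 (median 80.3), 62.8 to 349 (median 108) and 71.0 to 241 (median 135), and its ranges overlapped throughout. JAL34, of the same family, was barred by name and had a gap of 1.01. GPT, the transferase that starts the lipid-linked sugar chain of N-glycosylation, had 45.6 to 110 (median 77.6), 96.6 to 196 (median 118) and 88.1 to 170 (median 105).

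Regulators and metabolic enzymes with a symbol were few. RAPTOR1, a partner protein of the growth-controlling TOR kinase, had 33.1 to 96.7 (median 83.2), 93.0 to 130 (median 104) and 96.1 to 127 (median 107) in replicates 1, 2 and 3. IQD19, of a family with calmodulin-binding IQ motifs, had 14.0 to 33.7 (median 17.2), 25.2 to 40.8 (median 30.6) and 24.4 to 41.2 (median 35.1). HMT-1, a homocysteine methyltransferase that makes methionine, had 23.2 to 47.3 (median 36.4), 46.8 to 79.1 (median 57.2) and 36.1 to 114 (median 45.4). The mitochondrial gene ccb382, for cytochrome c assembly, had 41.3 to 95.2 (median 59.0), 48.6 to 315 (median 83.4) and 67.5 to 456 (median 182). Its log2 means were 5.91, 6.58 and 7.50 in replicates 1, 2 and 3, so replicate 3 lay above replicate 2 as well. The 4 genes BGLU15, BGLU16, IQD19 and ccb382 are named here for their symbols, chosen after their values were seen.

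The widest gaps among members with 1 gene belonged to loci without a symbol. AT4G22470 had signals of 5.05 to 26.2 in replicate 1 (median 12.5), 28.8 to 68.5 in replicate 2 (median 45.5) and 18.3 to 108 in replicate 3 (median 36.0). Its replicate 1 arrays lay under all replicate 2 arrays and overlapped with replicate 3. AT5G15780 had 15.3 to 57.3 (median 31.2), 35.7 to 130 (median 96.3) and 31.2 to 156 (median 96.9) in replicates 1, 2 and 3. AT1G63540 had 0.900 to 62.6 (median 44.1), 35.0 to 72.2 (median 52.3) and 38.2 to 68.3 (median 58.3). Its gap of 1.30 rested largely on array 34 at 0.900 and array 25 at 16.4, since the other 4 replicate 1 arrays, at 41.2 to 62.6, fell inside the range of replicates 2 and 3.

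AT1G73480 showed the opposite arrangement, with a narrow spread in replicate 1. Its signals were 65.4 to 97.0 (median 71.6), 106 to 231 (median 179) and 107 to 220 (median 148) in replicates 1, 2 and 3, and the replicate 1 arrays lay under all others. AT1G31710 had 24.4 to 93.6 (median 66.3), 106 to 298 (median 127) and 90.4 to 174 (median 110). AT4G12490 had 19.3 to 44.6 (median 36.1), 34.9 to 150 (median 68.4) and 39.9 to 132 (median 110). The remaining ones among the 12 widest, AT3G22060, AT2G34930, AT5G19110, AT4G18670, AT2G01300 and AT5G44020, had gaps of 1.15, 1.02, 1.01, 0.96, 0.96 and 0.95.

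**Figure D2:**
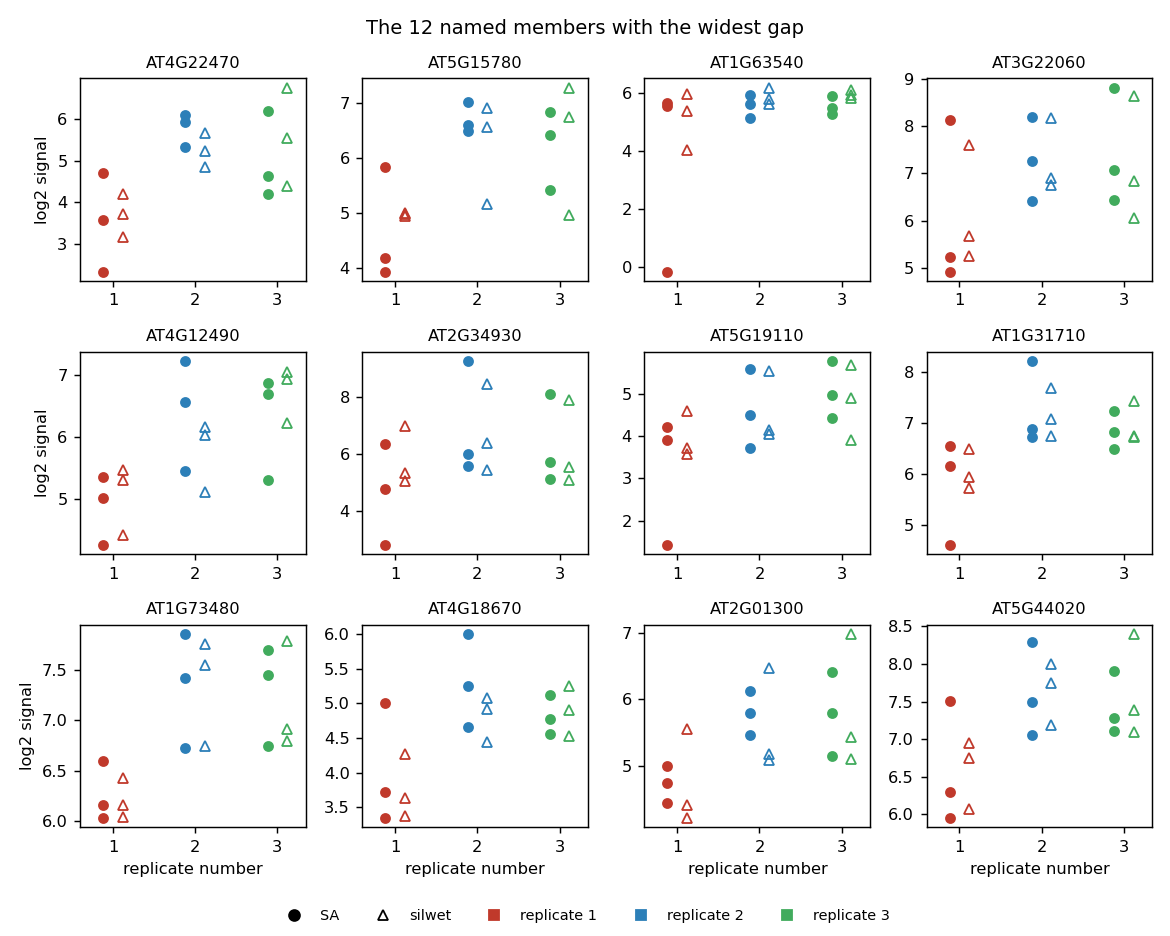
Log2 signal on each of 18 arrays for the 12 members with 1 gene and the widest gap, by replicate number (x axis), with filled circles for SA and open triangles for silwet. Replicate 1 points sit lowest on average, with 1 far-off SA array in AT1G63540 and no overlap in AT1G73480.

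The members nearest the lower end of the choice were GPT, AT1G67760 and HMT-1 inside it, each with a gap rounding to 0.59 or 0.58, and CEF, AT2G34810 and AT4G00750 outside it, each at 0.58. The end of the choice thus cuts a continuous range. At the high end of signal, AT1G31690 had log2 means of 8.03, 8.92 and 8.68 in replicates 1, 2 and 3, AT3G05730 had 7.90, 8.50 and 8.75, AT3G11930 had 7.94, 8.70 and 8.63, and AT2G07360 had 7.81, 8.47 and 8.44.

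Genes with a second probe set give a look at the same transcript through other probes. AT1G31690 had 2 member probe sets, with gaps of 0.83 and 0.65, and so did AT2G07360, with gaps of 0.77 and 0.64. In contrast, 3 member genes had another tested probe set that was not a member: its gap was 0.49 for AT1G10090, 0.29 for AT3G50590 and 0.10 for AT4G38760, so replicate 1 was lowest there too. AT1G31690 and AT1G31710 are adjacent protein-coding genes in the RefSeq annotation of TAIR10.1, as are AT3G22060 and AT3G22070. AT4G37180 and AT4G37240 have 6 protein-coding genes between them. The members with 1 gene fell on chromosomes 1 to 5 in shares of 20.8%, 15.6%, 26.0%, 16.9% and 18.2%, and all tested probe sets with 1 gene in shares of 26.0%, 14.4%, 20.3%, 14.4% and 23.8%. The median gene span was 2537 bases for members and 2361 bases for all tested genes.

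The type of probe set differed from the rest of the array. Names ending in _x_at, which mark probes that can match unrelated transcripts, made up 4 members (2.67%) and 0.132% of the tested probe sets. Names ending in _s_at, which mark probes shared by several transcripts, made up 11 members (7.33%) and 3.40% of the tested. HRGP1, AT5G06630, AT4G08410 and AT5G34900 were measured by _x_at probe sets, so part of their signal may come from related genes.

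Across the 18 arrays the members' profiles resembled each other to different degrees. The 5 members with 1 gene closest to the median member profile were AT1G09390 with a Pearson correlation of 0.89, AT4G28180 and AT5G06630 with 0.88, and HRGP1 and AT1G33080 with 0.86. These values describe 18 arrays that also chose the members, and no test was made. AT1G09390 had signals of 19.8 to 33.0 in replicate 1, 33.1 to 47.9 in replicate 2 and 30.1 to 44.6 in replicate 3. AT5G06630 had 11.9 to 21.6, 24.8 to 43.9 and 22.6 to 39.5, without overlap. AT1G33080 had 13.8 to 24.0, 25.4 to 37.3 and 27.8 to 40.3, also without overlap. AT4G28180 had 9.84 to 22.1, 18.6 to 30.7 and 21.8 to 41.2 and overlapped.

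The comparison named by the labels is that of SA in silwet with silwet alone, and each treatment held every replicate number 3 times. SA changed no member past the threshold in limma's test across all 13648 probe sets with Benjamini-Hochberg adjustment. An adjusted p under 0.05 was reached by 0 of 150 members and 0 of all tested probe sets (0% called). At an unadjusted p under 0.05 there were 0 members and 94 tested probe sets, a smaller share of the 13648 than 0.05. The fit has treatment as its only term, so differences between serial blocks and replicate numbers lie in its residual. The median SA minus silwet difference of the members was 0.00 on the log2 scale, 75 of 150 were above 0, and they ranged from -0.72 to 0.73 with a median standard error of 0.26. Without array 34 the median was 0.10 and 118 of 150 were above 0, and 0 members passed. That shift is built in and is not read as an effect of SA. Members were chosen to be low on replicate 1, and the fit has no replicate term. Leaving out 1 replicate 1 array of SA therefore raises their SA mean. In 132 members the difference was smaller than 0.25 in size. Within serial blocks 1, 2 and 3 taken singly, limma called 0 members and 0 tested probe sets, with 0 members and 121, 56 and 337 probe sets at an unadjusted p under 0.05. Of 15 tested genes on a list of defence and SA genes by symbol, 0 were members and 0 passed in the test of SA.

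AT5G24980 had the smallest p among members with 1 gene. Its signals were 19.9 to 43.9 in SA (median 30.5) and 13.5 to 34.7 in silwet (median 27.4), with wide overlap, and the difference was 0.40 with a standard error of 0.22 and a limma adjusted p of 0.9999 (0.0895 unadjusted). AT2G45870 had 10.1 to 25.3 in SA (median 20.0) and 12.5 to 30.1 in silwet (median 23.5), a difference of -0.30 with a standard error of 0.20.

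Replicate 1 was low in both treatments, as the choice of members partly fixes. The difference of replicate 1 from the mean of replicates 2 and 3 had medians over members of -0.81, -0.70 and -1.12 in SA blocks 1, 2 and 3, and of -0.63, -0.61 and -0.94 in silwet blocks 1, 2 and 3. Replicate 1 was the lowest of 3 in 139, 120 and 144 members in the SA blocks and in 135, 130 and 144 in the silwet blocks. Over all tested probe sets the medians lay between -0.03 and 0.08. The difference between SA and silwet in this replicate 1 deficit had a median of -0.14 over the members, and limma's interaction test called 0 members and 0% of all tested probe sets, with 4 members and 127 tested probe sets at an unadjusted p under 0.05. Without array 34 the median was 0.01.

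**Figure D3:**
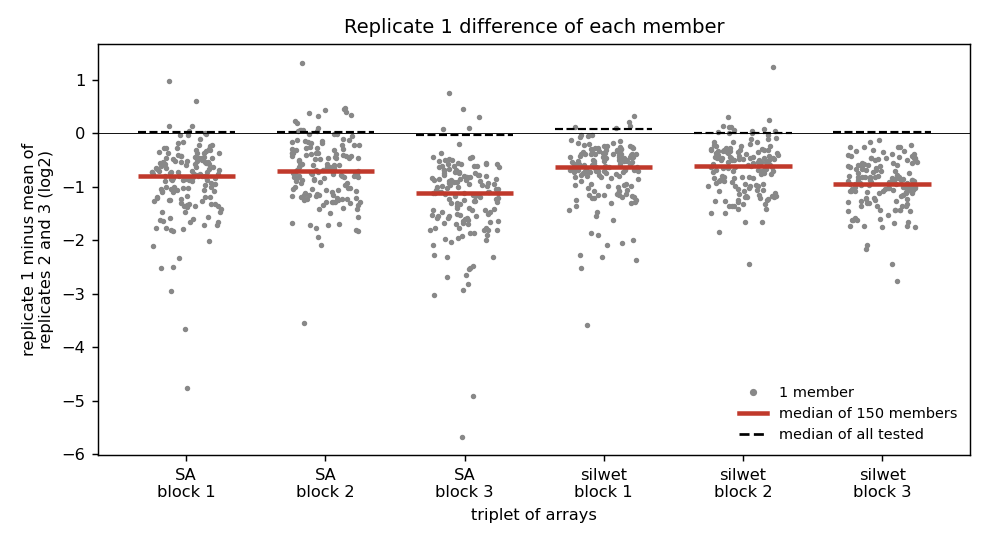
Each grey point is 1 of 150 members, as replicate 1 minus the mean of replicates 2 and 3 (log2) in 1 triplet of arrays; red lines are member medians and dashed lines the medians of all tested probe sets. Medians lie between -1.12 and -0.61 in the 6 triplets, lowest in block 3 of both treatments.

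AT3G44940 and AT4G33160 had the smallest p for this interaction. AT3G44940 had replicate 1 signals of 10.1, 20.8 and 12.2 in SA blocks 1, 2 and 3 and of 26.6, 17.8 and 24.1 in silwet, while its other arrays ran from 22.4 to 34.7. Its replicate 1 deficit was -1.10 in SA and -0.18 in silwet, a difference of -0.91 with a standard error of 0.32 and a limma adjusted p of 0.9999. For AT4G33160 the deficit was -1.15 in SA and -0.26 in silwet, with a limma adjusted p of 0.9999 as well.

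The serial blocks differed in level. In the fit without a replicate term the share of members called was near that of all probe sets, and with a replicate term it was larger. In limma's F-test over 3 blocks, with treatment as a term, 20 members (13.3%) passed, near the 12.7% of all tested probe sets. Block 1 against the mean of blocks 2 and 3 was called in 35 members (23.3%), near the background of 23.5%. The 6 arrays of block 1 are those between which the rule bounded a difference. Of the 35 members, 32 were higher in block 1 and 3 lower, whereas 10.5% of all tested probe sets were higher and 12.9% lower. The median difference over members was 0.11, with 86 of 150 above 0, against -0.07 over all tested probe sets. With the replicate number as a block in the same fit, 62 of 150 members passed, 44 higher and 18 lower, against 28.3% of all tested probe sets (12% higher and 16.2% lower). The F-test over blocks then passed 47 of 150 members and 2261 of 13648 tested probe sets. Without the replicate block, the gap that chose the members lies in the residual of the fit. Its part in the smaller share was not tested. The fits with arrays or replicates left out that follow have no replicate term. Without arrays 20, 28 and 30 in block 1, 9 members passed, all among the 35, against 2.34% of all tested. Without replicate 2 the number was 7 of 150, against 544 of 13648 tested probe sets, and without replicate 3 it was 5, against 458. Without replicate 1 it was 62, of which 31 were among the 35, against 3546 of 13648 tested probe sets.

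AT2G34930 and AT3G22060 had the largest rises in block 1 among the 6 members named by the smallest p in the F-test over blocks. AT2G34930 had signals of 81.7 to 617 in block 1 (median 257), 27.5 to 84.2 in block 2 (median 49.6) and 6.98 to 47.2 in block 3 (median 34.1). Block 1 was 2.62 log2 units higher than the mean of blocks 2 and 3 (SE 0.41, limma adjusted p 0.000478), and its lowest array lay inside the range of block 2. AT3G22060 had 194 to 451 (median 291), 37.3 to 153 (median 117) and 30.3 to 107 (median 75.8) in blocks 1, 2 and 3. All block 1 arrays lay above all others, the difference was 2.03 (SE 0.32, limma adjusted p 0.000483), and replicate 1 was nevertheless the lowest array in all 6 triplets.

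TBL37 had the smallest adjusted p of all members in the comparison of block 1 with the later blocks. Its signals in SA were 121, 212 and 232 in block 1 for replicates 1, 2 and 3, then 36.0, 90.4 and 72.3 in block 2, and 33.5, 53.5 and 42.2 in block 3. In silwet they were 84.8, 233 and 137 in block 1, 39.1, 72.4 and 51.1 in block 2, and 32.3, 37.1 and 44.1 in block 3. Block 1 was high in both treatments, replicate 1 was low within every block, and the difference of block 1 from the later blocks was 1.74 (SE 0.22, limma adjusted p 7.02e-05).

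JAL23 had 97.4 to 349 in block 1 (median 212), 64.1 to 177 in block 2 (median 80.9) and 54.7 to 91.7 in block 3 (median 79.5). It rose by 1.18 in block 1 (SE 0.25, limma adjusted p 0.0036). AT3G11930 had 384 to 663, 143 to 378 and 180 to 359 in blocks 1, 2 and 3, without overlap of block 1 with the others, and a difference of 0.95 (SE 0.20, limma adjusted p 0.00373). Without arrays 20, 28 and 30, TBL37, AT2G34930, AT3G22060 and JAL23 were the 4 members with 1 gene that still passed, with differences of 1.56, 2.81, 1.91 and 1.33, while AT3G11930 had 0.84 and a limma adjusted p of 0.124.

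AT3G19550 went the other way. Its signals were 11.9 to 53.0 in block 1 (median 21.9), 26.9 to 95.4 in block 2 (median 72.0) and 34.7 to 127 in block 3 (median 68.5), and block 1 was lower by a difference of -1.52 (SE 0.33, limma adjusted p 0.00437). Without arrays 20, 28 and 30 the difference was -1.46 with a limma adjusted p of 0.101. Of the probe sets with 1 gene among the members, 15 passed as higher in block 1, and AT3G19550 alone as lower. With the replicate block 20 passed as higher and 8 as lower, and these 8 came from 7 genes: AT3G19550, AT3G42660, AT4G12490, AT1G31690 with both its probe sets, AT3G53680, AT4G38760 and AT5G06940. Without array 34, 13 passed as higher and 5 as lower, which were AT3G19550, AT1G31690 with both its probe sets, AT4G12490 and AT3G42660. Leaving out this replicate 1 array of block 3 raises the later blocks in members, which were chosen low on replicate 1. The added names were chosen after their values were seen.

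**Figure D4:**
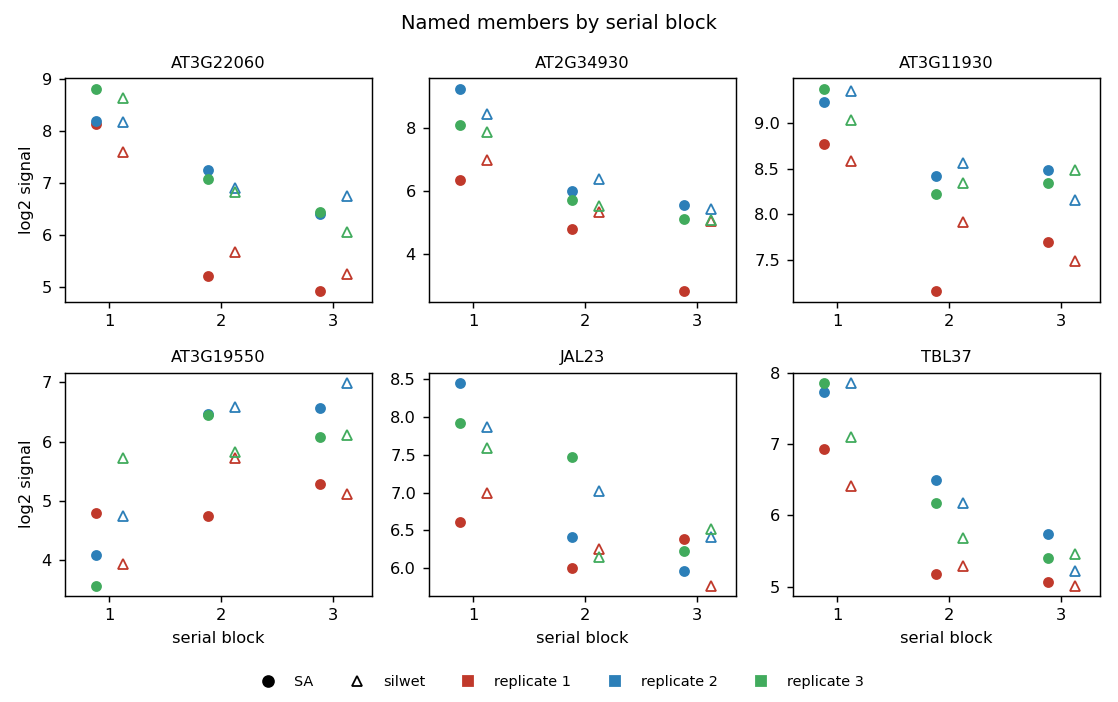
Log2 signal on each of 18 arrays for the 6 members with 1 gene and the smallest p over serial blocks, by block (x axis), coloured by replicate number, with filled circles for SA and open triangles for silwet. Block 1 is high in 5 genes and low in AT3G19550, and replicate 1 (red) is mostly lowest within a block.

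Among the other members that rose in block 1, HMT-1 had signals of 39.5 to 114 in block 1 (median 68.6), 33.2 to 60.8 in block 2 (median 46.1) and 23.2 to 53.7 in block 3 (median 36.5), a difference of 0.68 with a limma adjusted p of 0.0272. GPT had 79.6 to 196 (median 133), 76.7 to 114 (median 97.8) and 45.6 to 122 (median 92.4), a difference of 0.57 with a limma adjusted p of 0.0483. AT2G01300 had 31.8 to 126 (median 77.1), 21.3 to 55.5 (median 39.8) and 18.5 to 44.3 (median 34.2), a difference of 1.02 with a limma adjusted p of 0.0152. The ranges of all 3 genes overlapped between blocks. EXPA16, BGLU15, BGLU16 and IQD19 did not pass, with differences of 0.20, 0.36, 0.49 and -0.30. BGLU16 passed in the fit with the replicate block, with a limma adjusted p of 0.015.

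Families of these members did not share 1 direction over blocks. Of 13 tested TBL genes 3 were higher in block 1 and 0 lower, of 4 JAL genes 2 were higher and 0 lower, and of 9 BGLU genes 0 were higher and 2 lower. With the replicate block the counts were 3 higher and 2 lower for TBL (TBL36 and TBL39 were added as lower), 2 and 0 for JAL, and 1 and 3 for BGLU (BGLU16 higher and BGLU25 lower were added). Of 23 wall genes on the list 2 were higher and 7 lower, and of 15 defence and SA genes 5 were higher and 3 lower, and with the replicate block 2 and 9 wall genes and 6 and 3 defence and SA genes. Blocks 3 and 2 were not told apart: limma called 0 members and 0% of all tested probe sets, with 3 members and 537 probe sets at an unadjusted p under 0.05. The median of block 3 minus block 2 was -0.19 over the members, and 0.02 without array 34. Leaving out array 34 takes a replicate 1 array from block 3 alone. Because members were chosen low on replicate 1, their rise in block 3 is built in and nothing is read from it.

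The replicate 1 deficit was also set out by block. These deficits are the values whose mean chose the members, and that choice can favour probe sets with 1 deep block. Neither the members' share nor the p-value of a single member is therefore read as a result about them. The median deficit over members was -0.70 in block 1, -0.66 in block 2 and -1.05 in block 3, and 85 members were deepest in block 3, 37 in block 1 and 28 in block 2. In limma's interaction F-test 1 member passed, against 0.0366% of all tested probe sets. At an unadjusted p under 0.05 there were 48 members (32%), against 10.1% of all tested probe sets, and 32 of the 48 were deepest in block 3. Array 34 belongs to block 3. Without it 34 members (22.7%) had an unadjusted p under 0.05, against 6.04% of all tested probe sets, and 16 of the 34 were deepest in block 3. Over all members the block 3 median was then -0.94, with 74 deepest in block 3, and the count past the adjusted threshold was 1.

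The member that passed was the probe set 246114_at, to which the annotation gives no single gene. Its signals in SA were 170, 372 and 1461 in block 1 for replicates 1, 2 and 3, 208, 224 and 232 in block 2, and 51.0, 206 and 296 in block 3. In silwet they were 176, 507 and 1436, then 193, 197 and 173, and then 44.4, 192 and 306. Replicate 1 was clearly lowest in blocks 1 and 3 of both treatments, while in block 2 the 3 replicates lay close together. Its deficits were -2.19, -0.04 and -2.36 in blocks 1, 2 and 3 (limma adjusted p 0.00464).

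AT1G27595 came next among members with 1 gene. Its replicate 1 signals were 52.7, 75.5 and 19.0 in SA blocks 1, 2 and 3 and 54.0, 70.2 and 30.7 in silwet, while its other arrays ran from 51.8 to 88.9. The deficits were -0.27, 0.06 and -1.65 and the limma adjusted p was 0.0897, so that the low values lay in block 3 of both treatments. AT4G37240 had deficits of -1.70, 0.81 and -1.65 in blocks 1, 2 and 3 (limma adjusted p 0.19), and AT5G44020 had -1.53, -0.06 and -1.40 (limma adjusted p 0.244). Neither passed, and in both the SA replicate 1 array of block 2 was high, at 87.0 for AT4G37240 and 182 for AT5G44020. Without arrays 20, 28 and 30, each replicate number of block 1 rests on 1 array. The block 1 deficit was then -0.43 for AT1G27595 and -2.27 for AT4G37240.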

How the data were processed

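Total RNA of 18 samples was hybridised to 18 ATH1 arrays. The deposited values are signal intensity from MAS5, per the submitters' processing notes, which name no version and no settings. The mean of each array's signals without the top and bottom 2% was 100, so the authors had scaled the arrays. Signals were used as deposited and log2 transformed. Probe sets at or above the 40th percentile of mean log2 signal (4.31) were tested with limma 3.58.1 in R 4.3.3 (lmFit, eBayes with an intensity trend, Benjamini-Hochberg adjustment over 13648 probe sets, threshold 0.05), and the fits were checked on simulated data. Genes came from the platform annotation. The number of arrays limits the precision.

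Named were the 12 single-gene members with the widest gap, the 6 and 4 with the smallest p by block and by treatment, the 4 in each interaction, the 4 of highest level, up to 4 per list among 23 symbol lists, 3 on each side of the end of the choice, and the 5 closest to the median profile. Members, lists and tests were chosen with earlier results of these data known. Replicate numbers were taken to pair arrays across serial blocks. Deviations of same-numbered arrays, averaged over SA and silwet, correlated in all 9 comparisons (0.13 to 0.48). The averages themselves join SA and silwet arrays by number, and different numbers were not compared, so this pairing is not established. Between SA and silwet the correlations were 0.73, 0.03 and 0.48, so replicate 2 lacked one over 0.1. No label states a shared batch, and the main test of SA did not pair arrays by number. Alternatives were other scalings, an offset of 16, other filters, no trend, a replicate block and arrays or replicates left out.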

Additional observations from a re-analysis of the deposited data

Results flagged for a closer look

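The 108 groups of 6 arrays (36 named members in 3 replicate numbers) each mixed 3 serial blocks and 2 treatments. By Dixon's ratio of gap to range, taken on log2 signals, 6 groups had 1 array far from the other 5. For separate groups of 1 normal spread chance gives about 1 in 20, and 6 is near that number. The rate holds only roughly here, since the groups mix blocks and treatments and share arrays. On array 34, replicate 1 of SA block 3, the flagged members were AT1G63540 (ratio 0.684, signal 0.900 against 16.4 to 62.6), AT5G19110 (0.679, 2.70 against 11.9 to 24.1), AT4G34310 (0.659, 4.38 against 17.4 to 35.7) and RAPTOR1 (0.645, 33.1 against 66.1 to 96.7), each with that array lowest. All members were chosen for low signals on replicate 1 arrays. Array 20 was lowest among the replicate 2 arrays of AT5G15780 (0.717, 35.7 against 90.3 to 130), and array 30 among the replicate 3 arrays of AT3G19550 (0.750, 11.9 against 53.0 to 87.3). The replicate 1 deficit of the probe set 246114_at differed between serial blocks in limma's interaction F-test (adjusted p 0.00464), on deficits whose mean chose the members.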

How the results depend on the processing

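The counts of 0 members for SA minus silwet, block 3 minus block 2 and the replicate 1 deficit between treatments were 0 under every alternative run, the replicate block included where it was fitted. The 20 members of the F-test over blocks became 11 with the filter at the 60th percentile (which kept 55 members), 5 without arrays 20, 28 and 30, 47 with the replicate block and 2 to 47 when 1 replicate number was left out. The 35 members of block 1 against later blocks became 17, 9, 62 and 5 to 62 under the same alternatives. The 1 member of the deficit by block became 3 without arrays 20, 28 and 30. Counts over all 13648 tested probe sets (9099 with the 60th percentile filter) moved as well. In the F-test 1739 became 1360, 157, 2261 and 121 to 1692 under these alternatives in turn. For block 1 against later blocks 3201 became 2473, 319, 3856 and 458 to 3546. For the deficit by block 5 became 76. Of the 150 members, 95 stayed with 16 added to the signals, 55 with the level at the 60th percentile, 95 with silwet arrays alone, 99 without serial block 1 and 98 without serial block 3. Under every other application of the rule 148 to 150 of them still had their lowest mean in replicate 1. The 60th percentile filter and the left-out arrays, blocks or treatment use fewer members or arrays; for the replicate block and the added 16 the cause was not tested. Between SA and silwet, same-numbered arrays correlated at 0.73, 0.03 and 0.48 for replicates 1, 2 and 3; replicates 1 and 3 correlated best with their own number and replicate 2 did not, so pairing was not established, and the replicate block left 0 members called for SA. The median standard error of SA minus silwet was 0.26 for members and 0.16 for all tested probe sets. That fit has no replicate term, so the gap that chose the members lies in its residual, and the part of low signal in this was not tested.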
